A study of Equus caballus with 22 samples.

Results

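IGF2 and H19 are neighbouring imprinted genes, which means that in the mammals where they have been studied each is expressed mainly from the copy inherited from 1 parent. Both were followed here in horse endometrium, the lining of the uterus, through every array probe that carries a horse RefSeq transcript of either gene. There were 4 such probes, 2 for IGF2 and 2 for H19, among 43603 probes, and the pair makes up 2 of the 675 genes that could be named. The samples were endometrial biopsies of warmblood mares, each taken after the embryo had been recovered from a pregnant mare or at the corresponding stage without pregnancy. The groups were day 12 pregnant (6 arrays), day 12 control (6 arrays), day 8 pregnant (5 arrays) and day 8 control (5 arrays). Each mare gave a pregnant and a control biopsy at a day, so that pregnancy could be compared within mares. The labels do not say whether a mare number at day 12 is the same animal as that number at day 8.

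IGF2 encodes insulin-like growth factor 2, a secreted growth factor that acts through the IGF1 and insulin receptors and is cleared by the IGF2 receptor. H19 is a long noncoding RNA that is also the precursor of a microRNA. In mouse and human the paternal copy gives rise to IGF2 and the maternal copy to H19, and the pair shares enhancers behind a control region that is methylated on the paternal chromosome. Both are known for high expression in fetal and placental tissue, and the endometrium expresses IGF2 in its stroma in several species. The arrays count RNA of both parental copies together, so imprinting itself was not measured.

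In the RefSeq gene order of the horse assembly TB-T2T, H19 with the microRNA gene MIR675 lies next to IGF2 with MIR483. MRPL23 and TNNT3 follow on the side of H19, and INS, TH and ASCL2 on the side of IGF2. None of these neighbours had a probe that could be named on the array. Both IGF2 probes, A_69_P001031 and A_69_P006586, carried the accession NM_001114539 in both versions of the array annotation. The H19 probes carried NR_027326 in the newer version only. In the older version, used in the output of 8 of the 22 arrays, A_69_P129876 had the accession XM_001492880 and A_69_P113426 had DN511176. For each gene the brighter probe over all arrays is called the lead probe, A_69_P001031 for IGF2 and A_69_P129876 for H19, and the other the second probe.

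Levels are log2 signals minus the 75th percentile of the array, so that 0 is the brightness of the probe at that percentile, and they compare arrays for 1 probe but not probes with each other. All 4 probes were well above background on 22 of 22 arrays and none was saturated. The 75th percentile itself ranged from 577 to 1863 intensity units, and 74.2% to 92.9% of spots per array were well above background. Day 12 arrays lay on 4 slides scanned on 3 days and day 8 arrays on 3 other slides scanned on 2 other days. Day and slide therefore cannot be told apart, whereas both arrays of a mare always shared a slide.

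At day 12, IGF2 was brighter in pregnant than in control endometrium in 5 of 6 mares, but the difference did not pass the test across all probes. With the lead probe the level in mares 1 to 6 was -1.50, -1.66, -3.22, -1.82, -1.92 and -2.57 in pregnant endometrium, against -2.55, -2.59, -2.61, -3.03, -2.16 and -2.63 in control endometrium. The pregnant arrays of mares 1, 2, 4 and 5 lay above every control array, that of mare 3 lay below every control array, and the groups overlapped. The level averaged -2.11 ± 0.65 in pregnant and -2.59 ± 0.28 in control endometrium (SD, n = 6 each). The change was 0.48 ± 0.21 log2 (SE, 95% interval 0.02 to 0.94), a 1.39-fold higher signal in pregnancy (limma, unadjusted p = 0.0413, adjusted p = 0.376). An exact sign-flip permutation over the 6 mares gave p = 0.156, two-sided, where the smallest possible value was 0.0313.

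The second IGF2 probe showed the same picture mare by mare. Its level ranged from -3.64 to -2.07 with a median of -2.51 in pregnant endometrium, against -3.62 to -2.85 with a median of -3.19 in control endometrium at day 12. The change was 0.56 ± 0.22 log2 (SE, limma adjusted p = 0.322), again positive in 5 of 6 mares, with mare 3 at -0.41. Of the 4 probes of both genes 0 passed an adjusted p of 0.05 at day 12, where 0.265% of all 38457 probes tested did. Both IGF2 probes and neither H19 probe had an unadjusted p below 0.05, as did 12.5% of all probes. The mean change of the lead probe was 0.22, 0.93, 0.63 and 0.24 on the 4 slides of day 12. Without mare 3 the change was 0.70 log2 (limma adjusted p = 0.0618).

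At day 8, IGF2 signal in pregnant and control endometrium differed by less than the spread between mares. Mares 1, 2, 4, 5 and 6 had lead probe levels of -2.10, -2.66, -2.84, -2.62 and -2.53 in pregnant endometrium, against -1.98, -3.03, -2.93, -2.68 and -2.15 in control endometrium. The groups overlapped, mare 1 was the brightest in both, and 3 of 5 mares were higher in pregnancy. The change was 0.00 ± 0.23 log2 (SE, 95% interval -0.50 to 0.51, limma adjusted p = 0.999) with the lead probe and -0.10 ± 0.24 (adjusted p = 0.981) with the second. At day 8, 0 of the 4 probes and 0% of 38453 probes passed by limma, and 1 of the 4 had an unadjusted p below 0.05, as did 5.83% of all probes.

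The pregnancy effect on IGF2 at day 12 minus that at day 8 was 0.47 ± 0.31 log2 with the lead probe (limma adjusted p = 0.603) and 0.66 ± 0.33 with the second (adjusted p = 0.50). None of the 4 probes passed this limma test of the difference, which 0.0104% of all probes did. Their unadjusted limma p ranged from 0.0666 to 0.918. Higher IGF2 signal at day 12 is thus not shown to set day 12 apart from day 8.

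**Figure D1:**
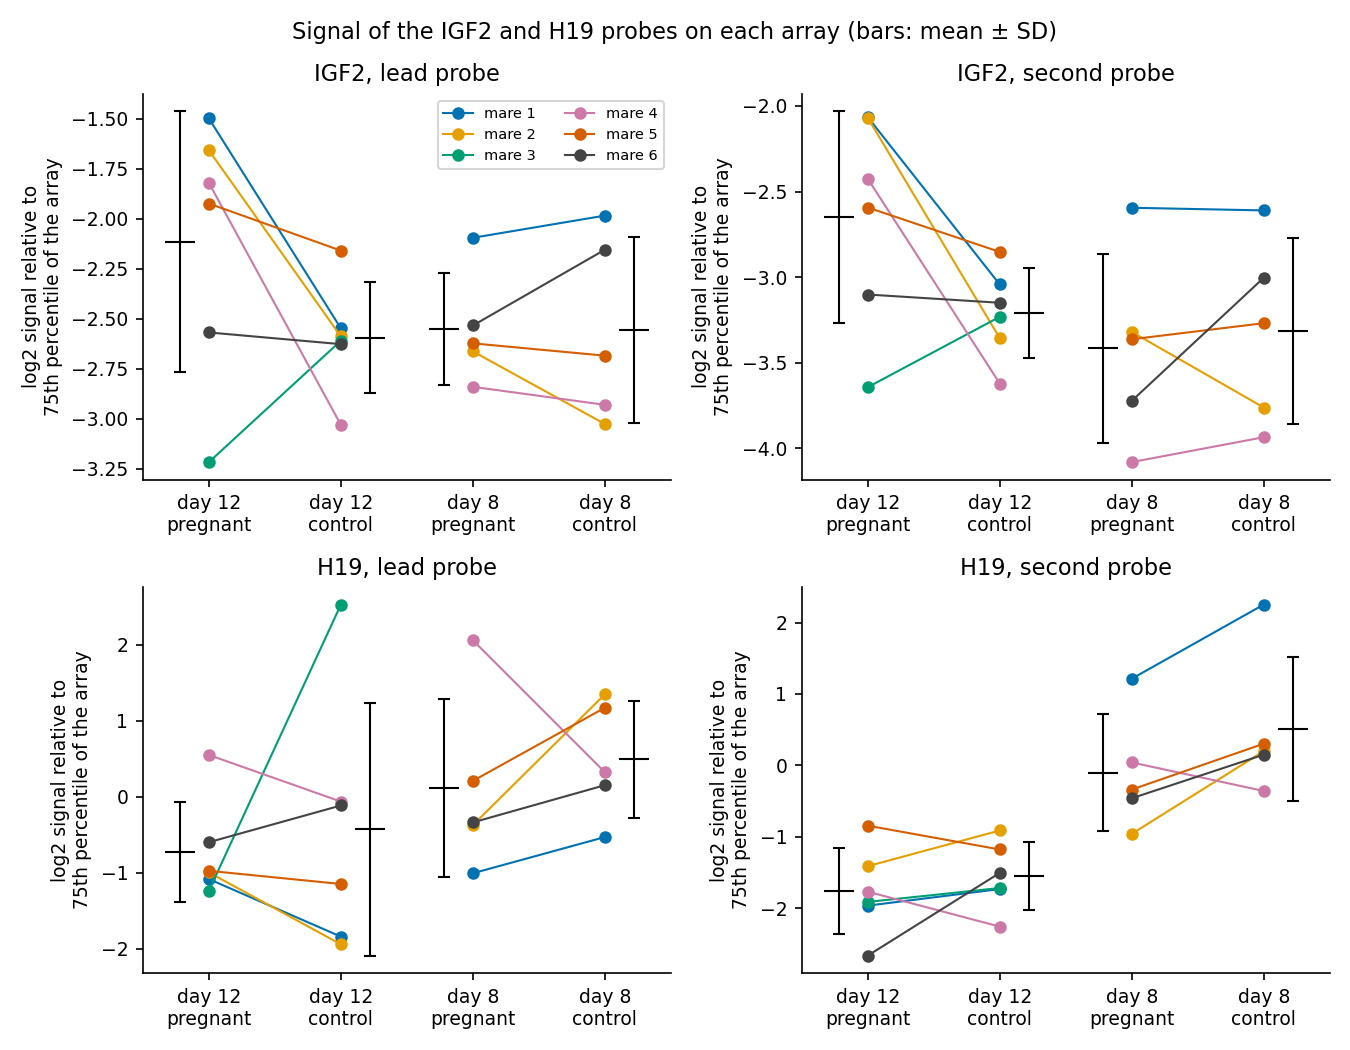
Log2 signal above or below the array's 75th percentile (vertical axis) for each of the 4 probes in the 4 groups (horizontal axis); points are arrays, lines join the 2 arrays of a mare at a day, and black bars are mean ± SD. The IGF2 panels show 5 of 6 mares higher in day 12 pregnant endometrium, and the second H19 probe lies below -0.8 on all day 12 arrays. Equal colours at the 2 days mean equal mare numbers, not a known identity of the animal.

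The same arrays were also compared between days. Day 12 pregnant endometrium had the brightest IGF2 signal of the 4 groups with both probes. With the lead probe it was followed by day 8 pregnant (-2.55 ± 0.28), day 8 control (-2.56 ± 0.47) and day 12 control endometrium (-2.59 ± 0.28), and these 3 lay within each other's SD. In pregnant endometrium, day 12 exceeded day 8 by 0.44 ± 0.29 log2 with the lead probe (SE, limma adjusted p = 0.292) and by 0.77 ± 0.33 with the second (adjusted p = 0.108), and neither passed. In control endometrium the difference was -0.04 ± 0.22 (adjusted p = 0.934) with the lead probe and 0.11 ± 0.24 (adjusted p = 0.814) with the second.

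For H19, the 2 probes did not move together. After each group's mean was removed, the IGF2 probes correlated at r = 0.93 over the 22 arrays, whereas the H19 probes correlated at r = -0.30. Within days the values were 0.98 at day 12 and 0.90 at day 8 for IGF2, against -0.29 and -0.35 for H19. These are descriptions over arrays of which 2 come from each mare. Why the H19 probes differ was not tested, and the comparisons between groups and the correlations over mares are therefore given with both. The genes most like H19 and some checks with 1 mare left out used the lead probe alone.

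**Figure D2:**
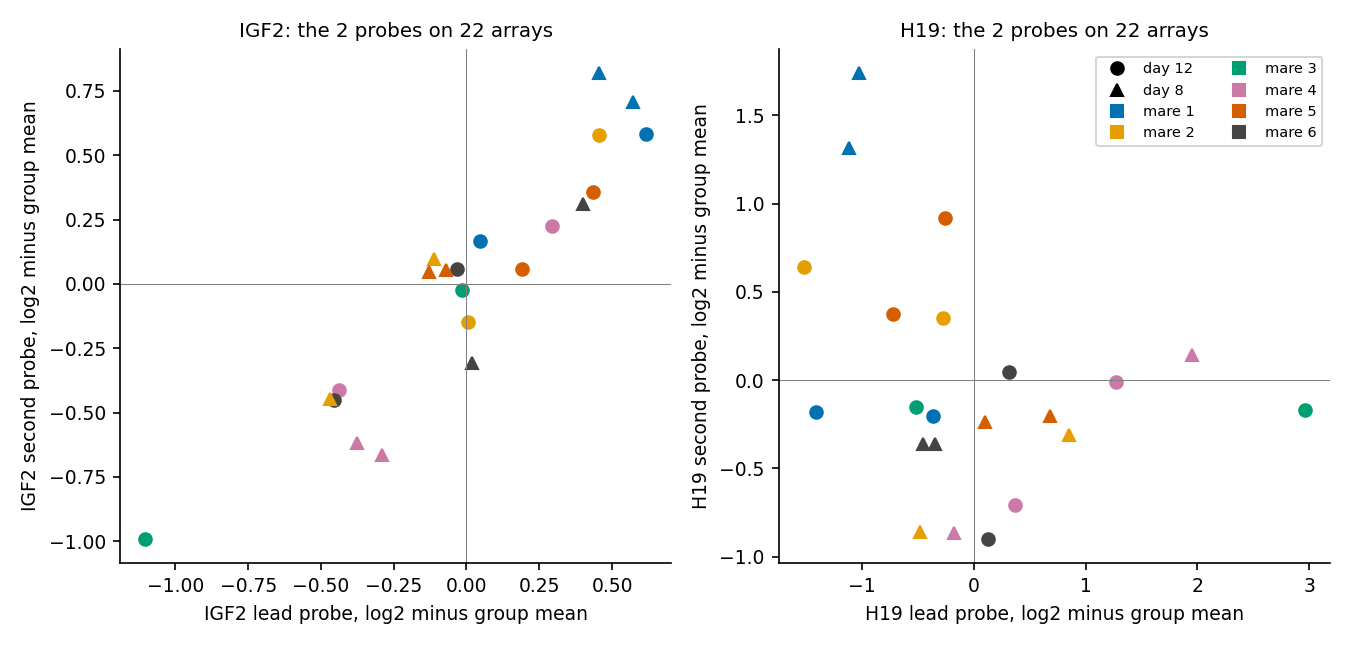
Log2 signal minus the group mean on 22 arrays, lead probe (horizontal axis) against second probe (vertical axis), for IGF2 (left) and H19 (right); circles are day 12, triangles day 8, colours mare numbers. IGF2 points run along a rising line (r = 0.93), whereas H19 points do not (r = -0.30), with 1 circle near 3 on the horizontal axis, the day 12 control array of mare 3.

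Pregnancy did not change H19 past the threshold at either day with either probe. At day 12 the lead probe read -1.08, -0.996, -1.24, 0.55, -0.97 and -0.60 in pregnant endometrium of mares 1 to 6, against -1.84, -1.94, 2.53, -0.06, -1.15 and -0.12 in control endometrium. The groups overlapped, and the control array of mare 3 was the brightest of all 22. It alone gave mare 3 a change of -3.76, whereas 4 of the other 5 mares were higher in pregnancy. The mean change was -0.29 ± 0.57 log2 (SE, limma adjusted p = 0.872), and without mare 3 it turned to 0.40 (adjusted p = 0.629).

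With the second H19 probe at day 12 the level was -1.96, -1.41, -1.91, -1.77, -0.84 and -2.66 in pregnant endometrium, against -1.73, -0.91, -1.72, -2.26, -1.18 and -1.50 in control endometrium. Neither mare 3 array stood out there, and 4 of 6 mares were lower in pregnancy. The change was -0.21 ± 0.23 log2 (SE, limma adjusted p = 0.747).

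At day 8 the lead H19 probe read -1.01, -0.37, 2.06, 0.21 and -0.34 in pregnant endometrium of mares 1, 2, 4, 5 and 6, against -0.53, 1.35, 0.32, 1.17 and 0.15 in control endometrium. The second probe read 1.21, -0.96, 0.04, -0.34 and -0.46 in pregnant endometrium, against 2.25, 0.20, -0.36, 0.30 and 0.15 in control endometrium. With both probes mare 4 was higher in pregnancy and the other 4 mares were lower, and the groups overlapped. The change was -0.38 ± 0.63 log2 (SE, limma adjusted p = 0.964) with the lead probe and -0.61 ± 0.25 with the second (unadjusted p = 0.0302, adjusted p = 0.833). Leaving out 1 mare at a time moved the lead probe between -0.91 without mare 4 and -0.048 without mare 2. The exact sign-flip permutation gave p = 0.125 for the second probe, where 5 mares allow no value below 0.0625. The effect at day 12 minus that at day 8 was 0.09 ± 0.85 log2 with the lead probe and 0.40 ± 0.33 with the second (limma adjusted p = 0.982 and 0.691).

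**Figure D3:**
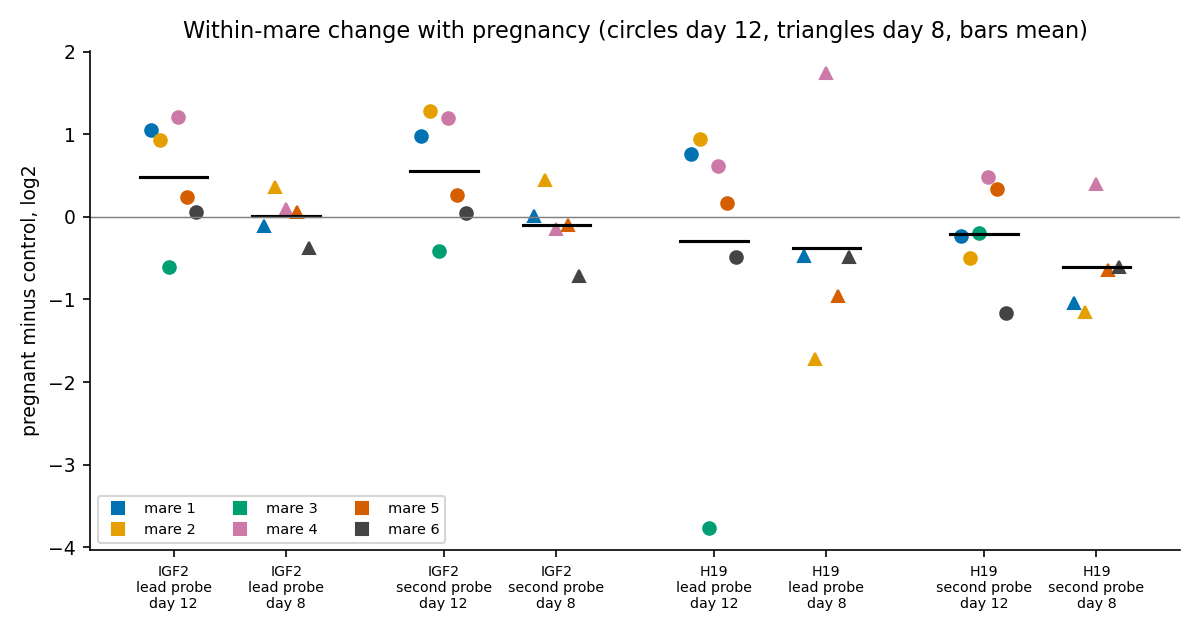
Pregnant minus control log2 signal within each mare (vertical axis) for the 4 probes at day 12 (circles) and day 8 (triangles); bars are means and colours mare numbers. IGF2 changes at day 12 are above 0 in all mares but mare 3, and the lead H19 probe of mare 3 at day 12 lies alone at -3.76.

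The clearest difference of the gene pair was one of day. H19 was lower at day 12 than at day 8 by the second probe, in control and in pregnant endometrium. In control endometrium the level averaged -1.55 ± 0.47 at day 12 (SD, n = 6) and 0.51 ± 1.01 at day 8 (SD, n = 5). The highest day 12 control array, that of mare 2 at -0.91, lay below the lowest day 8 control array, that of mare 4 at -0.36. The groups did not overlap, which was so for 4.46% of 38303 probes in that direction. The difference was -2.06 ± 0.42 log2 (SE, 95% interval -2.97 to -1.15), a 4.17-fold lower signal at day 12 (limma adjusted p = 0.0194). In this comparison 7.1% of 38456 probes passed, and 4.62% passed with a lower signal at day 12.

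In pregnant endometrium the second H19 probe averaged -1.76 ± 0.61 at day 12 (SD, n = 6) and -0.10 ± 0.82 at day 8 (SD, n = 5). The groups overlapped by 1 pair of arrays, day 12 mare 5 at -0.84 and day 8 mare 2 at -0.96. The difference was -1.66 ± 0.39 log2 (SE), a 3.16-fold lower signal at day 12 (limma adjusted p = 0.0115), in a comparison in which 24.3% of 38455 probes passed, 13.1% with a lower signal. Exact permutation of the day labels gave p = 0.0043 in control endometrium, the smallest possible value, and p = 0.0087 in pregnant endometrium. With bulk tissue, fewer cells of a type and less RNA per cell cannot be told apart.

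The lead H19 probe gave a day difference of -0.92 ± 0.72 log2 in control endometrium (SE, limma adjusted p = 0.444) and of -0.83 ± 0.50 in pregnant endometrium (adjusted p = 0.238), and neither passed. Its control group means were -0.43 ± 1.66 at day 12 and 0.49 ± 0.77 at day 8, and its pregnant group means -0.72 ± 0.66 at day 12 and 0.11 ± 1.17 at day 8 (SD, n = 6 and 5). All 4 day differences of H19 thus had a negative sign, and 2 passed. Leaving out 1 mare number at a time moved the lead probe in control endometrium between -1.51 without mare 3 (limma adjusted p = 0.0906) and -0.41 without mare 2 (adjusted p = 0.787).

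The days lay on slides of their own, and the second H19 probe also varied between scan days. Its control arrays averaged -1.72, -1.04 and -1.88 on the 3 scan days of day 12, against 1.23 and 0.03 on the 2 scan days of day 8. With scan day as a random block the adjusted p was 0.108 in control and 0.0623 in pregnant endometrium by limma. With slide as a random block it was 0.0552 in control and 0.0345 in pregnant endometrium. Without mare 1, whose day 8 control array was the brightest at 2.25, the control difference was -1.59 (adjusted p = 0.0279), and it missed the threshold without mare 4, 5 or 6.

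Subtracting H19 from IGF2 on the same array removes the scaling between arrays. With the second H19 probe the difference averaged -1.05 ± 0.33 log2 at day 12 and -3.07 ± 0.75 at day 8 in control endometrium (SD, n = 6 and 5). In pregnant endometrium it averaged -0.35 ± 0.69 at day 12 and -2.45 ± 0.64 at day 8. IGF2 relative to H19 was thus higher at day 12 by 2.02 log2 in control and by 2.10 in pregnant endometrium, and the arrays of the days did not overlap in either (exact permutation p = 0.0043 each, the smallest possible, and 0.0087 each adjusted over 4 comparisons with that probe). In control endometrium this repeats the day difference of the second H19 probe, since IGF2 itself differed by -0.04. How often other pairs of probes do not overlap was not counted. With the lead H19 probe the day differences were 0.88 in control and 1.27 in pregnant endometrium (adjusted exact p = 0.473 and 0.165). Pregnant minus control was 0.77 at day 12 and 0.39 at day 8 with the lead probe, and 0.69 and 0.61 with the second. None of these pregnancy differences passed (adjusted exact p from 0.165 to 0.563). Without mare 3 the lead probe gave 0.30 at day 12.

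Whether the genes moved together was examined over the 11 combinations of mare and day, after the mean of each day was removed, with the lead probe of IGF2. The permutations treated these as independent, although mare numbers recur at both days and some mares share a slide. The p-values may therefore be too small. The mean of both arrays of a mare ran opposite to the lead H19 probe: mares with more IGF2 signal had less H19 signal. Pearson's r was -0.92 (permutation p = 0.00067, two-sided, 0.0105 adjusted over 16 values) and Spearman's rho -0.88 (adjusted permutation p = 0.0105). Without the 2 mares farthest from the median of IGF2 the r was -0.85, and within the 6 mares of day 12 it was -0.90 (exact permutation p = 0.0222, adjusted 0.0711). No correlation over the 5 mares of day 8 alone was computed. No mare lay between -0.07 and 0.21 on the IGF2 axis, and r was -0.52 within the 6 mares below the day mean and -0.66 within the 5 above it.

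With the second H19 probe the same comparison had the opposite sign. Mares with more IGF2 signal had more H19 signal by that probe, with r = 0.69 (permutation p = 0.0191, adjusted 0.0711) and rho = 0.64 (adjusted 0.0982). The normalisation of the authors' deposited value table is not given, and its column medians ran from 7.47 to 8.83. In that table the r with the lead H19 probe was 0.08, and after its own 75th percentile was subtracted per array it was -0.87. The brightness of the arrays, as the log2 75th percentile averaged per mare, correlated with IGF2 at r = -0.26, with the lead H19 probe at 0.14 and with the second at -0.22. Its part in the correlation was not tested beyond these settings.

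The pregnancy changes of the mares gave a positive correlation between IGF2 and the lead H19 probe, r = 0.67 (permutation p = 0.0383, adjusted 0.0982) with rho = 0.59 (adjusted 0.132). Within the 6 mares of day 12 it was 0.89 (exact permutation p = 0.0083, adjusted 0.0444) with rho = 0.77 (adjusted 0.164). Mare 3 at day 12 had both the lowest IGF2 change and the lowest H19 change. Without the 2 mares farthest from the median r was 0.24, and without mare 3 it was 0.23 over both days, so that the pooled relation rests on those mares. Within day 12 r was 0.88 over the 5 mares other than mare 3. With the second H19 probe r was 0.18 (permutation p = 0.621). The pregnant minus control change in array brightness correlated at r = 0.38 with that of IGF2. With the lead H19 probe it correlated at 0.43 and with the second at -0.28. The part of brightness in the correlation of changes was not tested.

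**Figure D4:**
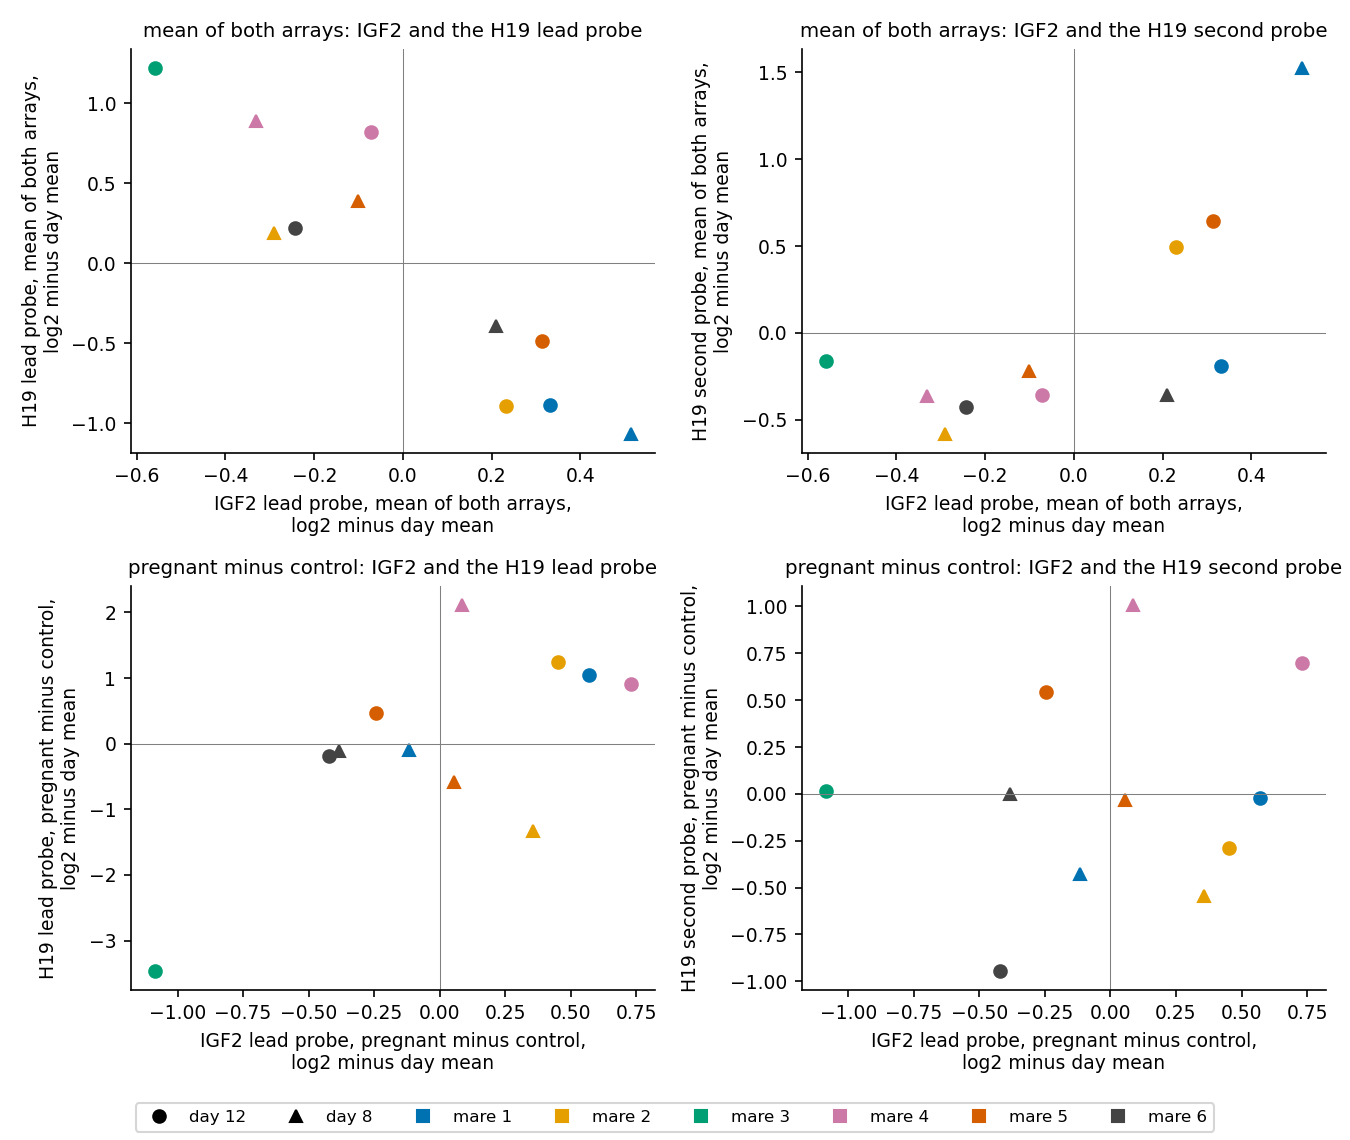
IGF2 lead probe (horizontal axes) against the lead (left) and second (right) H19 probe (vertical axes), in log2 minus the day mean, for the mean of both arrays of a mare (top) and pregnant minus control (bottom); circles are 6 mares of day 12, triangles 5 mares of day 8. The top panels slope in opposite directions (r = -0.92 left, 0.69 right), and mare 3 of day 12 sits alone at the lower left of the bottom left panel.

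Few other genes of the growth factor system could be named. Of 27 genes of the IGF axis 1 had a probe, IGF1, a growth factor that signals through the same receptor as IGF2. IGF1 changed by 0.14 ± 0.14 log2 with pregnancy at day 12 and by 0.08 ± 0.15 at day 8 (SE, limma adjusted p = 0.723 and 0.973). Its level averaged -2.01 ± 0.32 in day 12 pregnant, -2.16 ± 0.25 in day 12 control, -2.66 ± 0.70 in day 8 pregnant and -2.74 ± 0.43 in day 8 control endometrium (SD). Day 12 exceeded day 8 by 0.58 in control (limma adjusted p = 0.109) and by 0.64 in pregnant endometrium (adjusted p = 0.131), and neither passed. The median change of all probes was between -0.03 and 0.00 log2 in the 5 comparisons.

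Of 21 other imprinted genes or members of the imprinted gene network, 2 were measured and 0 of them passed in any of the 5 comparisons. NNAT encodes neuronatin, a small membrane protein that is imprinted in mouse and human, and it was well above background on 18 of 22 arrays. DCN encodes the matrix proteoglycan decorin, which is imprinted in mouse placenta. With pregnancy at day 12, NNAT changed by -0.14 ± 0.21 log2 and DCN by 0.17 ± 0.13 (SE, limma adjusted p = 0.819 and 0.642). Both had an unadjusted p above 0.05 in every comparison except DCN between the days in pregnant endometrium (-0.36, unadjusted p = 0.0475, adjusted p = 0.124).

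Of 17 genes that regulate imprinted domains or H19, 1 was measured. SUZ12, a subunit of the polycomb repressive complex that methylates histone H3, averaged 0.34 ± 0.44 in day 12 pregnant, 0.62 ± 0.57 in day 12 control, 2.32 ± 1.04 in day 8 pregnant and 2.78 ± 1.38 in day 8 control endometrium (SD). Its groups did not overlap between the days in control or in pregnant endometrium. Of all probes, 4.46% of 38303 in control and 8.25% of 38201 in pregnant endometrium were lower at day 12 without overlap. SUZ12 was lower at day 12, with a difference of -2.17 ± 0.55 log2 in control (SE, limma adjusted p = 0.0387) and of -1.98 ± 0.42 in pregnant endometrium (adjusted p = 0.0074). With a lower signal at day 12, 4.62% of all probes passed in control and 13.1% in pregnant endometrium. The pregnancy changes of SUZ12, -0.28 at day 12 and -0.46 at day 8, did not pass.

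Markers of the cell types that a biopsy can hold were set beside these results. Of 12 conceptus or trophoblast markers 3 had a probe, and CYP19A1, the aromatase, and PAG, a pregnancy-associated glycoprotein, passed the filter while AFP did not. At day 12 CYP19A1 averaged -1.66 in pregnant and -1.65 in control endometrium, and the dimmer PAG probe averaged -5.38 and -5.35. CYP19A1 and PAG changed with pregnancy at day 12 by -0.01 and -0.02 log2. The mean level of both ranged from -4.10 to -3.12 in pregnant and from -4.06 to -2.82 in control endometrium. ESRP1, the 1 of 8 epithelial markers measured, changed by 0.00. The smooth muscle marker TAGLN (1 of 5 measured) changed by 0.90 ± 0.23 log2 with pregnancy at day 12 (SE, limma adjusted p = 0.139), with -1.43 to -0.35 in pregnant and -2.85 to -1.08 in control endometrium. The endothelial marker PECAM1 (1 of 5) changed by 0.44 ± 0.16 (adjusted p = 0.305). Of 8 leukocyte markers 5 were measured, and CD14, a monocyte marker, changed by 0.51 ± 0.16 log2 (SE, limma unadjusted p = 0.0077, adjusted p = 0.214). The 5 leukocyte markers ran from 0.00 for CD68 to 0.51 for CD14 at day 12, with a median of 0.08, and 0 of 5 passed. The stromal markers DCN and LUM changed by 0.17 and 0.09 log2 with pregnancy at day 12. The day 12 changes of CYP19A1, PAG, ESRP1, CD68 and CD2 lay between -0.02 and 0.04 log2. Those of LAPTM5, LUM, ITGAX and DCN lay between 0.08 and 0.17. The part of all these markers in the IGF2 change was not tested.

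Between the days, 4 of the 12 markers measured passed by limma in pregnant endometrium, where 24.3% of all probes did, and 0 of 12 in control endometrium, where 7.1% did. CYP19A1, LUM, PECAM1 and ITGAX had an unadjusted p below 0.05 in control endometrium (limma adjusted p from 0.0818 to 0.110). The share of all probes at that unadjusted threshold is not given here, so whether these markers stand out cannot be said. The day difference of the pregnant group minus that of the control group equals the pregnancy effect at day 12 minus that at day 8, and 0 of 12 markers passed its limma test. It was 0.53 for CD14 (unadjusted p = 0.0418, adjusted p = 0.462), 0.62 for TAGLN (adjusted p = 0.547), 0.33 for PECAM1 (adjusted p = 0.647) and 0.04 for LUM (adjusted p = 0.979). In pregnant endometrium PECAM1 was higher at day 12 by 0.92 log2 (adjusted p = 0.0059), CD14 by 1.01 (adjusted p = 0.0018) and TAGLN by 0.84 (adjusted p = 0.0462). The stromal matrix gene LUM was lower, with a difference of -0.63 (adjusted p = 0.0418). The mean level of 2 stromal markers, DCN and LUM, ranged from 1.82 to 2.74 in day 12 pregnant and from 2.14 to 2.62 in day 12 control endometrium, against 2.83 to 3.13 in day 8 pregnant and 2.34 to 3.48 in day 8 control endometrium. The 5 leukocyte markers averaged -1.90 to -1.26 in day 12 pregnant and -2.02 to -1.37 in day 12 control endometrium, against -1.83 to -1.27 in day 8 pregnant and -1.87 to -1.14 in day 8 control endometrium. The part of these markers in the H19 difference was not tested.

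Among 605 other named genes, those whose levels followed IGF2 most closely over the 22 arrays, with group means removed, were HTR1A, a serotonin receptor (r = 0.66), WNT2, a secreted Wnt ligand (0.66), PVALB, a calcium-binding protein (0.63), SLC26A2, a sulphate transporter (0.63), and PPAT, an enzyme of purine synthesis (0.63). For the lead H19 probe they were YWHAQ, a 14-3-3 protein (0.83), FRZB, a secreted Wnt antagonist (0.78), PTGES3, a co-chaperone (0.64), LOC100066639 (0.64) and CLDN10, a tight junction protein (0.64). Without mare 3 the values for H19 were 0.71, 0.65, 0.49, 0.53 and 0.55, and those for IGF2 lay between 0.61 and 0.72. The lead H19 probe itself stood at r = -0.24 with IGF2, and 485 of the 605 genes had a higher r with IGF2. The second H19 probe stood at r = 0.55 with IGF2 over the same arrays, so the sign depended on the probe. These values describe arrays that share mares and slides.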

How the data were processed

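Total RNA of 22 endometrial biopsies was labelled with Cy3 and hybridised to Agilent horse arrays in 1 colour, as the labels' protocols state. The scanner output that the authors deposited gives spot intensity on a linear scale, background-subtracted and not scaled between arrays. The submitters' processing notes name Agilent Feature Extraction 10.5.1.1, and the file headers give a later release for day 8. Their deposited value table was read as log2, since it followed the log2 intensity with r from 0.986 to 0.997 per array; its normalisation is not given in the sources used here, its column medians ran from 7.47 to 8.83, and it served as an alternative.

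From these, log2 processed intensity minus the 75th percentile of the array was computed per probe. The filter kept 38457 of 43603 probes, those called well above background in 5 or more of the 22 arrays. Symbols came from RefSeq accessions matched to a horse gene table (assembly TB-T2T), which named 1394 probes of 675 genes, 607 of them past the filter. No coordinates or sequences are given, because the table's build differs from that of the array.

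limma 3.58.1 in R 4.3.3 (lmFit, eBayes, two-sided, Benjamini-Hochberg over all probes) tested pregnancy over all 22 arrays, with a fixed block for every combination of mare and day, and tested the days over the 11 control or 11 pregnant arrays without covariates. The labels give each mare a pregnant and a control sample; once group means were removed, the r between them was 0.289 to 0.725 for day 12 mares and 0.321 to 0.817 for day 8 mares. Deviations of the same mare number at the 2 days correlated at -0.153 to 0.342. The same number was the best match for 2 of 5 numbers in control and for 2 of 5 in pregnant endometrium. With the days on separate slides, this check cannot decide whether the animals were the same. Since the labels do not say it either, the days were tested without pairing. Exact permutation tests and 100000 permutations within day for correlations used SciPy 1.17.1. The limma fits were tested on simulated data.

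The named genes were all probes of IGF2 and H19, the lead probe being the brighter one, the measured members of the fixed gene and marker lists, and the 5 genes most like each lead probe. Genes and lists were chosen with earlier results of these data known. Alternatives covered background correction (normexp on median signals, as the files hold no mean signal), quantile normalisation, filters, prior, blocks, the value table, the probe and each mare number left out. The number of arrays limits the precision.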

Additional observations from a re-analysis of the deposited data

Results flagged for a closer look

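By Dixon's test at the 95% level, which marks about 1 in 20 groups by chance, 3 of 32 groups of values held 1 array or mare that stood apart, and all 3 concern H19. The second probe read 2.25 in day 8 control endometrium of mare 1, where the other 4 arrays lay between -0.36 and 0.30. The lead probe read 0.55 in day 12 pregnant endometrium of mare 4, where the other 5 arrays lay between -1.24 and -0.60. Its pregnant minus control change at day 12 was -3.76 in mare 3, where the other 5 lay between -0.48 and 0.95. In each case the other H19 probe did not set the same array or mare apart by this test, and the reason was not tested.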

How the results depend on the processing

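The pregnancy comparisons of IGF2 and H19 missed the threshold in every setting tried, with either probe. Those with values near 0 changed sign. IGF2 at day 8 was -0.007 in the value table, -0.048 with the mean of the gene's probes and -0.10 with the second probe. IGF2 between days in control endometrium was 0.038, 0.034 and 0.11 in these settings. The second H19 probe at day 12 was 0.11 with normexp, which moved the median of all probes by 0.33, so that relative to it the value was -0.22 and that of IGF2 0.29. With the mean of its probes H19 passed between days (-1.49 in control, -1.25 in pregnant endometrium), as it did with the second probe alone (-2.06 and -1.66). That probe missed the threshold in pregnant endometrium with normexp (-1.14, or -1.53 relative to a median of all probes of 0.38, against -1.63 as reported), with slide (-1.98 in control) and with scan day (-2.13 and -1.68) as a random block. With the mare number as a replicate block across days it was -2.03 in control (adjusted p = 0.107) and -1.63 in pregnant endometrium (0.0503), the lead probe -1.51 and -0.73, and IGF2 -0.04 and 0.66; 31 and 5093 probes then passed instead of 2732 and 9332. The second IGF2 probe then passed in pregnant endometrium (0.96). Whether the 5 mare numbers pair the days is not known. With no replicate block within days IGF2 at day 12 kept 0.48 (adjusted p = 1.000), and 41 probes passed instead of 102.

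IGF2 minus H19 between days passed with the mean of the probes (1.53 in control, 1.85 in pregnant endometrium) and with the second H19 probe (2.02 and 2.10). The correlation of changes was past an unadjusted p of 0.05 as given, but not with normexp (0.62), the mean of the probes (0.54), the second H19 probe (0.18) or without the 2 farthest mares (0.24), nor without mare 1, 3, 4 or 6 (p from 0.0648 to 0.436). That of mare levels was 0.084 in the value table, -0.42 with the mean of the probes and 0.69 with the second probe. The cause was not tested.

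Leaving out 1 mare number at a time gave, for IGF2, 0.33 to 0.70 at day 12, -0.085 to 0.10 at day 8 (second probe -0.24 to 0.055), 0.33 to 0.69 for the difference of effects, and -0.16 to 0.10 between days in control endometrium. The second IGF2 probe in pregnant endometrium ran from 0.56 to 0.96 between days and passed once, without mare 3. H19 gave -0.54 to 0.40 at day 12, -0.91 to -0.048 at day 8, -1.51 to -0.41 between days in control endometrium and -0.49 to 0.78 for the difference of effects. The second H19 probe gave -2.26 to -1.59 between days in control, past the threshold in 3 of 6, and -1.94 to -1.29 in pregnant endometrium, past it in 6 of 6. IGF2 minus H19 ran from 0.30 to 0.93 at day 12, from -0.037 to 0.90 at day 8 and from 0.25 to 1.48 between days in control endometrium, the correlation of changes from 0.23 to 0.79 and that of levels from -0.95 to -0.87.

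Over all probes, calls at day 12 ranged from 9 to 387 in other settings and from 22 to 977 without 1 mare, and normexp gave 13 higher and 0 lower against 81 and 21. The part of the day 12 pregnant array of mare 1 in the normexp counts was not tested. Calls between days ranged from 31 to 4504 in control and from 389 to 9842 in pregnant endometrium, and the value table gave 11 higher and 271 lower calls in control, against 954 and 1778. At day 8 the count was 0 in every setting.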
